A study of Arabidopsis thaliana with 2 samples.

Results

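The distal end of the long arm of chromosome 5 in Arabidopsis thaliana is described here from the SNPs listed in it. Its members are the listed SNPs from position 18000001 to the last one, at 26927726, on the TAIR10 build. They number 350 of the 40612 SNPs on the 5 chromosomes, or 0.862% of the list and 3.02% of the SNPs of chromosome 5. The region was selected on the measured SNP counts, which set its start at 18 Mb, so the low density is a description of how the stretch was chosen and carries no test. At this limit the last SNP outside lay at 17995778 and the first inside at 18006040, and the 100 kb windows on either side held 14 SNPs inside and 26 outside.

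Seedlings of 2 pools were sequenced as genomic DNA, 1 pool with the phenotype of the dominant mutation potent and 1 without it, both collected from about 200 sown seeds. Both pools came from the fifth of 5 crosses of potent to the ecotype Ler, which followed 6 crosses to the parental line in Col-0. That parental line carried the reporters DR5::Luciferase, pWOX5::ER-YFP and pSCR::ER-GFP. The history that both pools share also includes treatment with 50 mM ethyl methanesulfonate (EMS) for 12 hours. The deposited table is 1 list of positions, described by its title as homozygous, and it names neither pool. Its title also holds the letters MT, which the labels do not define. No value can therefore be compared between seedlings with and without the phenotype, and the spread between replicates is unknown.

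The Arabidopsis reference sequence is that of Col-0, and Ler differs from it at many natural sites, so repeated crossing to Ler fills the genome with sites that differ from the reference. Chromosomes are inherited in long blocks broken by crossovers, and neighbouring SNPs of a block travel together. EMS adds its own scattered point mutations, mostly changes of G:C to A:T pairs. The list gives no alleles, so these kinds of site cannot be told apart in it. Where no SNP is listed, the pool may match Col-0, carry both alleles or have had no call.

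The density of listed SNPs in the distal end was low throughout its length, though not equal from one Mb to the next. The 350 SNPs over 8.93 Mb gave 39.2 per Mb (95% Poisson interval 35.2 to 43.5), against 624 per Mb (612 to 635) in the first 18 Mb of the same chromosome. The ratio of these densities was 0.0628 (95% interval 0.0563 to 0.0699), and it was 0.116 when SNPs were thinned to at most 1 per 1 kb. All intervals given here cover counting error only, and linked SNPs are not independent. From 18 Mb on, the successive full Mb held 86, 45, 39, 52, 24, 35, 15 and 18 SNPs, and the last 0.928 Mb held 36. The first Mb was thus the densest and the stretch from 24 to 26 Mb the emptiest, after which the chromosome end returned to 38.8 per Mb (27.2 to 53.7), a value close to that of the whole distal end.

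The boundary was a slope of several 100 kb windows followed by a low shelf. Windows of 100 kb starting at 17300001 held 141, 71, 79, 50, 31, 24 and 26 SNPs up to 18 Mb, and the next ones held 14, 8, 8 and 6. The counts thus began to decline before the 18 Mb limit and kept declining after it. An edge was placed on the running 500 kb density, from the end of the last window at 50% or more of the median window of the first 18 Mb (57.5 SNPs) to the start of the first stretch of 1 Mb held under 20% of it. This edge ran from 17.9 to 18.2 Mb, a width of 300 kb. The running average over 500 kb would spread even an abrupt step, so part of this width can come from the rule itself. Thinning the list to 1 SNP per 1 kb moved the edge to between 18 and 19.3 Mb, a width of 1300 kb. The width thus depends on whether SNPs or sites at least 1 kb apart are counted.

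Behind the slope, the 15 windows from 18 to 19.5 Mb formed the shelf. They held between 6 and 14 SNPs each, 125 in all, or 83.3 per Mb (69.4 to 99.3). Their variance over mean was 0.731, where evenly random placement gives 1. A trough of 7 windows followed, from 19.5 to 20.2 Mb, with 7 SNPs, or 10 per Mb (4.02 to 20.6), and 3 of its windows were empty. SNPs then returned: 90 lay between 20.2 and 22 Mb, or 50.0 per Mb (40.2 to 61.5), with no empty window and a variance over mean of 1.08. Between 22 and 26 Mb, 92 SNPs gave 23.0 per Mb (18.5 to 28.2), and 5 of 40 windows were empty. These segments were delimited after the counts were seen, which by itself makes the counts within a segment more alike.

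**Figure D1:**
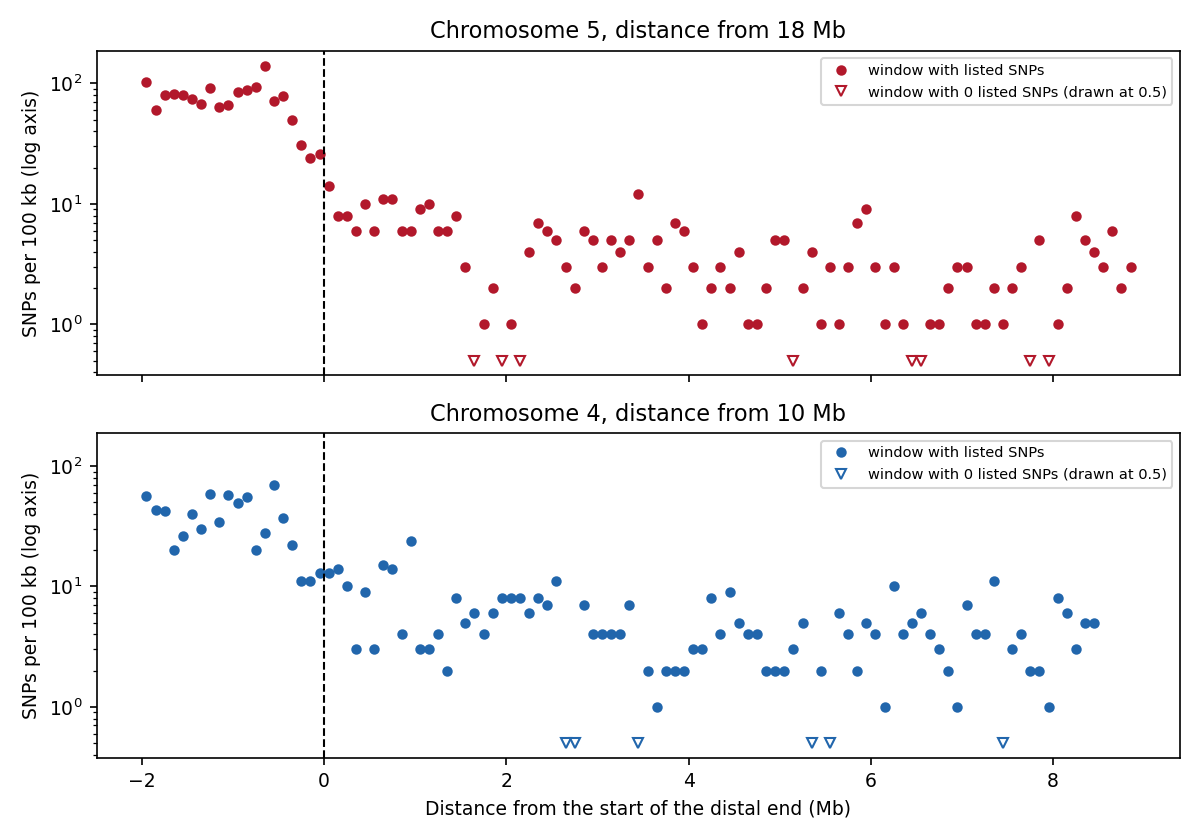
Listed SNPs per 100 kb window (log axis) against the distance in Mb from 18 Mb on chromosome 5 (top) and from 10 Mb on chromosome 4 (bottom). On chromosome 5 a slope ends in a shelf of 6 to 14 SNPs per window, a trough of 0 to 3 follows, and 8 of 89 full windows beyond the dashed line hold 0 SNPs, against 6 of 85 on chromosome 4.

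Taken over its whole length, the distal end was less even than random placement. Full 100 kb windows had a median of 3 SNPs and a highest count of 14, and 8 of 89 (8.99%) were empty, where even random placement at the same mean would leave 1.78 empty. The variance over mean of the windows was 2.47. From 20 Mb on it was 1.81, and with SNPs within 100 bp of each other joined to 1 locus it was 1.58 there. This measure grows with the mean count, which was 3.91 per window in the distal end and 62.4 in the first 18 Mb, where it was 24.5. Its excess over 1, divided by the mean count, was 0.375 in the distal end and 0.376 in the first 18 Mb. The 198 loci from 20 Mb on had a median distance of 21.6 kb, where even placement of as many would give 24.1 kb.

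Clumps were small. When neighbours within 10 kb were joined, the 350 SNPs fell into 192 groups, of which 109 were SNPs alone, 46 were pairs, 27 held 3 or 4 SNPs and 10 held 5 or more. The 10 larger clumps contained 62 SNPs, or 17.7% of the distal end, and the largest held 8. In the first 18 Mb the same joining put 98.0% of SNPs into clumps of 5 or more, but at that density the joining distance spans most neighbours. Of the 10 larger clumps, 6 started before 19.5 Mb, 9 before 21 Mb and all 10 before 24 Mb. Listed SNPs of the distal end were densest before 19.5 Mb, which by itself joins more neighbours there. The 109 SNPs alone made up 31.1% of the distal end, and they were 15.5% of the 704 SNPs of the whole list with no other SNP within 10 kb.

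**Figure D2:**
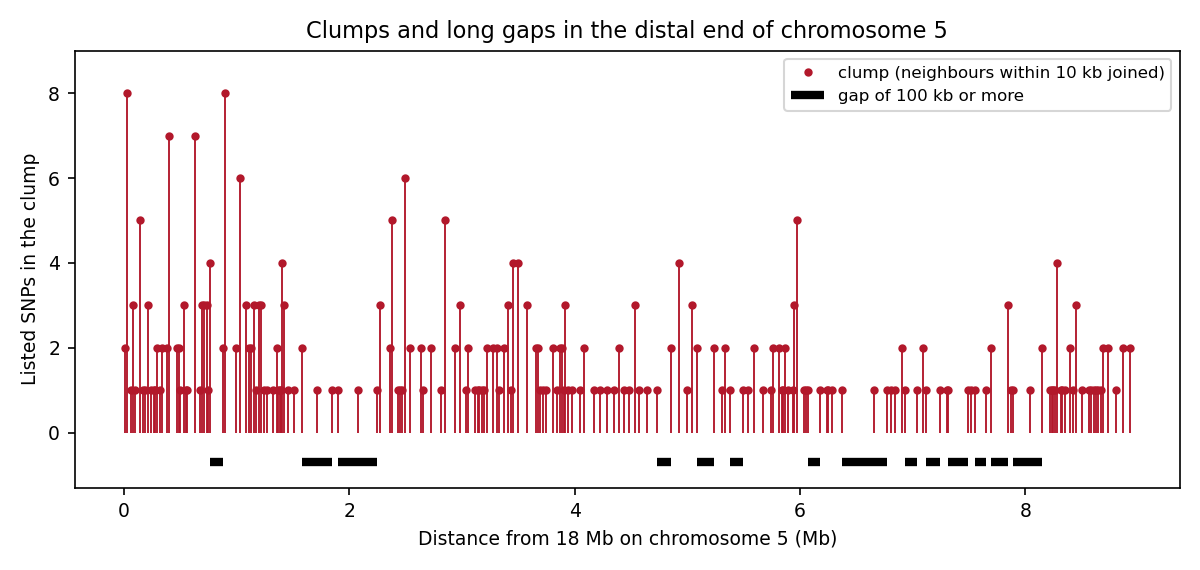
Each clump of listed SNPs in the distal end of chromosome 5 (neighbours within 10 kb joined), drawn at its centre by its distance in Mb from 18 Mb, with its number of SNPs as height. The 10 clumps of 5 to 8 SNPs all start before 24 Mb, and the black bars mark the 18 gaps of 100 kb or more, 12 of which start beyond 23 Mb.

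Most of the clumps with the most SNPs lay on the shelf, and they covered several genes each. One of 8 SNPs ran from 18023142 to 18037580, over 14.4 kb, with 3 of its SNPs in protein-coding genes. It included GSO2 (AT5G44700), a leucine-rich repeat receptor-like kinase needed for a normal embryo surface. The other clump of 8 ran from 18887427 to 18914502, with 2 SNPs in genes, in a stretch with BSK2 (AT5G46570), a brassinosteroid-signalling kinase, and the transcription factor gene NAC096 (AT5G46590). A clump of 7 from 18391941 to 18409484 had all 7 SNPs inside genes. Its stretch took in the urea transporter gene DUR3 (AT5G45380), the chloroplast protease subunit gene CLPP4 (AT5G45390), RPA70C (AT5G45400), a subunit of the single-strand DNA-binding replication protein A, and maMYB (AT5G45420), a membrane-anchored MYB transcription factor. The other clump of 7, from 18621229 to 18640984, had 4 SNPs in genes, which were AT5G45910 and AT5G45950. Its stretch also took in CHLI2 (AT5G45930), a magnesium chelatase subunit of chlorophyll synthesis, and NUDT11 (AT5G45940), a Nudix hydrolase. A pair of clumps held 6 SNPs each. The one from 19019280 to 19046566 spanned HB-7 (AT5G46880), a homeodomain transcription factor gene, and 2 of its SNPs lay in genes. The one from 20485019 to 20502138 lay beyond the trough, and 0 of its 6 SNPs were inside a protein-coding gene. Of all SNPs of the distal end, 46% lay in protein-coding genes. A gene named here lies in the span of a clump and need not hold a SNP. NAC096, CLPP4, CHLI2 and NUDT11 held none.

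Very close pairs made up a share of neighbours like that in the dense part of the chromosome, although the density was far lower. Of the 349 distances between neighbours, 23 were 10 bp or less, or 6.59% (95% Clopper-Pearson interval 4.22 to 9.72). In the first 18 Mb it was 919 of 11227, or 8.19% (7.68 to 8.71), and these intervals overlap. Distances over 10 bp and up to 1000 bp made up 11.7% (8.56 to 15.6) in the distal end and 56.6% (55.7 to 57.5) in the first 18 Mb. Density alone sets much of that class, since even random placement would give 3.81% in the distal end and 45.8% in the first 18 Mb, so both lay above the even value, by 3.09 and 1.24 times. For distances of 10 bp or less, even placement would give 0.137 in the distal end and 69.8 in the first 18 Mb, far fewer than the 23 and 919 listed. Per Mb, there were 2.58 such pairs in the distal end and 51.1 in the first 18 Mb, so the pairs were rarer here in number. No test was run on these shares, because SNPs of 1 list are not replicates.

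Of the 23 close pairs, 21 lay before 23 Mb and 2 beyond it. Listed SNPs in general were also fewer beyond it. The successive Mb from 18 to 23 Mb held 86, 45, 39, 52 and 24 SNPs, and those beyond held 35, 15, 18 and 36. No close pair was listed between 22923673 and 26456152, a stretch of 3.53 Mb. Both bases lay inside protein-coding genes in 13 of the 23, beside 46% of all SNPs of the distal end. In 5 close pairs the bases were adjacent. In 8 pairs no other SNP was listed within 10 kb. Among these, the pair at 19577293 and 19577301 in AT5G48310 had its nearest other SNP 72.4 kb away. The adjacent bases 20727509 and 20727510, between AT5G50940 and FUM2 (AT5G50950), a fumarase gene, stood 74.8 kb from the next SNP. The adjacent bases 22852866 and 22852867, between AT5G56420 and AT5G56430, stood 64.5 kb from it. These 3 pairs were named after their values were seen.

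**Figure D3:**
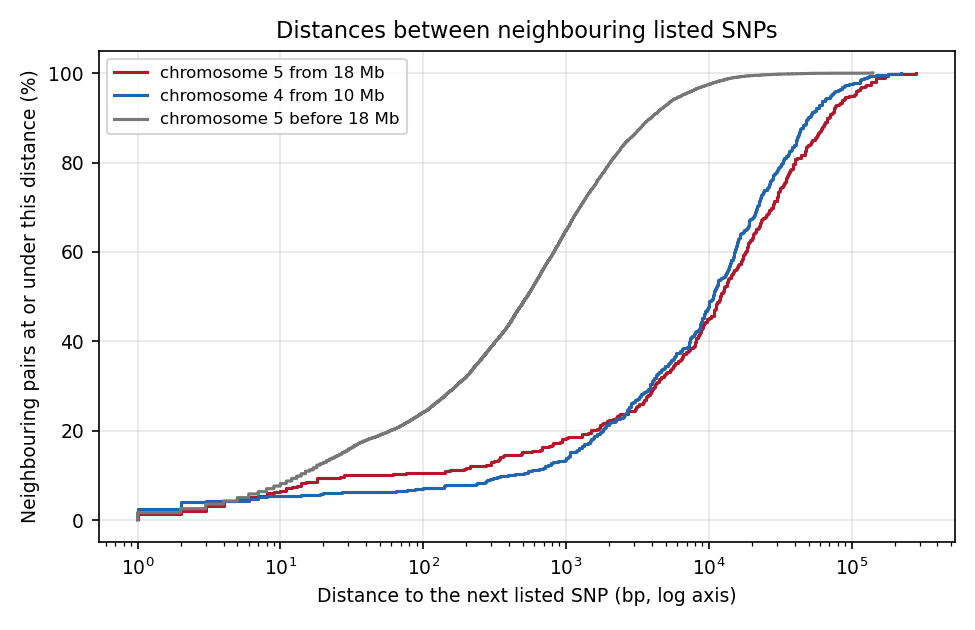
Cumulative share (%) of the distances between neighbouring listed SNPs (bp, log axis) for chromosome 5 from 18 Mb, chromosome 4 from 10 Mb and chromosome 5 before 18 Mb. The curves lie close together up to 10 bp (6.59%, 5.41% and 8.19%) and then part, so that the medians are 12.1, 10.7 and 0.534 kb.

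Long gaps covered a large share of the distal end and were gathered in the trough and beyond 23 Mb. There were 18 distances of 100 kb or more between neighbours, together 2.54 Mb or 28.5% of the length, against 1 such distance in the first 18 Mb. Even random placement at the mean density of the distal end would give 6.92. Of the 18, 1 started before 19.5 Mb, 4 in the trough, 1 between 20.2 and 23 Mb and 12 beyond 23 Mb. The trough was delimited by its low counts, so long gaps in it follow from that choice. Listed SNPs were also fewer beyond 23 Mb, which by itself gives more long gaps there. The longest ran from 24376562 to 24658685, over 282 kb and 68 whole protein-coding genes. It opened inside PIP2;4 (AT5G60660), an aquaporin gene of the plasma membrane, and closed inside AT5G61330, next to the cytochrome P450 gene CYP89A3 (AT5G61320). The next pair in length adjoined in the trough and were split by a single SNP at 20077677 in AT5G49500, between the MADS-box gene AGL83 (AT5G49490) and the prefoldin gene PFD3 (AT5G49510). They measured 181 kb, opening at 19896391 between KCS21 (AT5G49070), a fatty acid elongation enzyme, and AT5G49100, and 172 kb, closing at 20249718 between RUS6 (AT5G49820) and the exocyst gene EXO84B (AT5G49830). The longest gap therefore lay outside the trough, in the Mb that had the fewest SNPs. Without the SNPs that had no other within 10 kb, the longest gap became 929 kb, from 23974116 to 24903344, a step that can only lengthen gaps.

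Listed SNPs in the distal end were scarcer inside protein-coding genes than outside all annotated genes. Genes held 161 of the 350 SNPs, or 46% (95% Clopper-Pearson interval 40.7 to 51.4), while they covered 65.5% of the bases. That was 27.5 SNPs per Mb of gene (95% Poisson interval 23.4 to 32.1) against 63.0 per Mb (54.1 to 72.9) outside annotated genes, where 180 SNPs lay, and these intervals do not overlap. Pseudogenes held 4 SNPs and RNA genes 5. The density inside genes was 0.437 of that outside them (95% interval 0.351 to 0.544) in the distal end, 0.395 (0.325 to 0.481) in the distal end of chromosome 4 and 0.583 (0.560 to 0.607) in the first 18 Mb of chromosome 5. The ratio of the first 18 Mb lay above both sparse ends, and its interval did not overlap theirs. The region is also rich in genes, with 275 protein-coding genes per Mb, against 282 in the distal end of chromosome 4 and 214 in the first 18 Mb, and pseudogenes covered 1.38% of it, against 11% of the first 18 Mb. Whether gene content bears on the ratio was not tested.

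**Figure D4:**
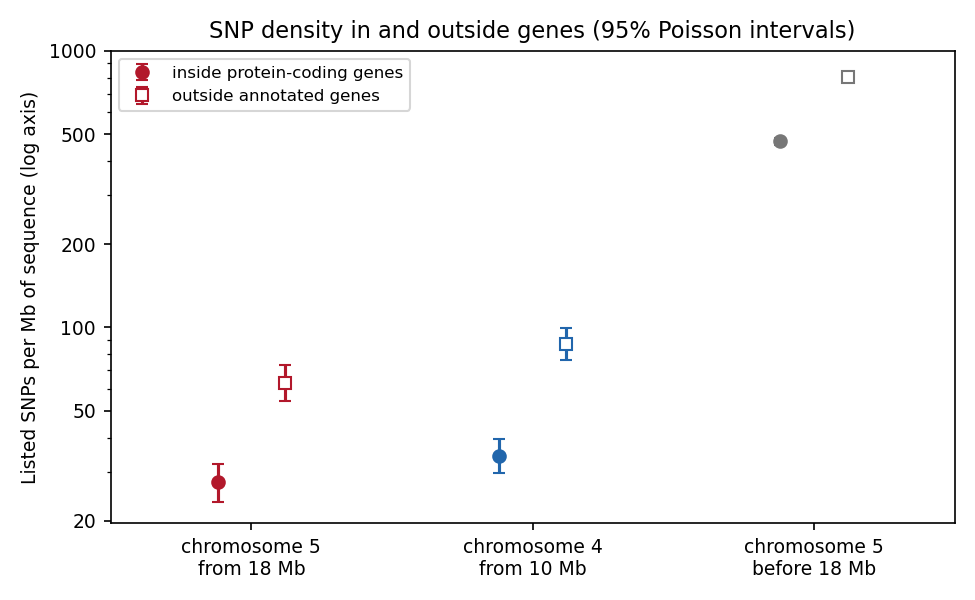
Listed SNPs per Mb of sequence (log axis) inside protein-coding genes (filled circles) and outside annotated genes (open squares), with 95% Poisson intervals, for both sparse distal ends and the first 18 Mb of chromosome 5. Genes are below the sequence outside them in each, at 27.5 against 63.0 per Mb in the distal end of chromosome 5.

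Few genes carried a listed SNP, and none carried more than 3. Of 2458 protein-coding genes in the distal end, 134 held at least 1, or 5.45% (4.59 to 6.42), beside 29.2% of all protein-coding genes of the genome and 44.5% of those in the first 18 Mb. The region was chosen for few SNPs, so this share follows from the choice. One SNP was listed in 108 genes, 2 in 22 and 3 in 4. In 15 of the 26 genes with 2 or 3 SNPs, all of them lay within 20 bp of each other.

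Genes with the most listed SNPs were GSO2, maMYB, AT5G45910 and CPSF160, with 3 each. In GSO2, SNPs at 18033330 and 18033334 lay 4 bp apart and another 3876 bp further on. In maMYB all 3, at 18406019, 18406034 and 18406046, fell within 27 bp. AT5G45910 had an adjacent pair at 18621527 and 18621528 and 1 SNP 298 bp before it. CPSF160 (AT5G51660), a subunit of the factor that cleaves and polyadenylates messenger RNA precursors, had its 3 spread over 4773 bp. It is the only one of the 4 beyond the trough and the only one without a pair within 20 bp. RAN1 (AT5G44790), the copper-transporting ATPase that supplies the ethylene receptors, had 2 SNPs 4 bp apart. It was 1 of 22 genes tied at 2 SNPs, and the next of these along the chromosome were AT5G44940, AT5G45560, AT5G46200, AT5G46270 and AT5G46530. In the first 3 of these the SNPs lay 6, 3 and 3 bp apart, and in the other pair of genes 814 and 583 bp apart. The SNPs at 26456152 and 26456154 fell in both ARO2 (AT5G66200) and CPK28 (AT5G66210), a calcium-dependent protein kinase, whose annotated spans overlap, so these 2 SNPs count for both genes.

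The members of the auxin and root gene lists in the distal end, 8 in all, held no listed SNP. These lists do not cover every gene of auxin response or root growth. Aux/IAA proteins repress auxin response factors until the TIR1/AFB receptors, with auxin bound, send them to degradation, and lateral root formation depends on this chain. Only 5.45% of all protein-coding genes of the region held a SNP, so the 0 SNPs of these 8 members say nothing particular about them. The 8 members stood in stretches of different emptiness. EIR1 (AT5G57090), the root efflux carrier PIN2, lay in a gap of 149 kb between SNPs at 23086777 and 23236064. IAA33 (AT5G57420), of the Aux/IAA list, and AIL5 (AT5G57390), also called PLT5, a PLETHORA-group transcription factor gene, shared a gap of 67.0 kb that opened at 23239785. ARF4 (AT5G60450) lay in the 89.2 kb that lead up to the SNP opening the longest gap, at 24376562, and the receptor gene AFB5 (AT5G49980) in 83.1 kb that open at 20278977. AIL7 (AT5G65510), also called PLT7, lay in a gap of 69.1 kb. The repressor gene IAA9 (AT5G65670) and ARF2 (AT5G62000) lay in the shortest such intervals, of 21.6 and 22.8 kb.

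The MADS-box flowering repressors of the MAF cluster, relatives of FLC, also held 0 listed SNPs. All 4, AGL31 (MAF2, AT5G65050), MAF3 (AT5G65060), MAF4 (AT5G65070) and MAF5 (AT5G65080), lay in 1 gap of 150 kb from 25887728 to 26037302, the fifth longest of the distal end. This gap opened between CESA6 (AT5G64740), a cellulose synthase gene, and ABR1 (AT5G64750). Since the 4 share 1 gap, they are not separate observations. Only 5.45% of all protein-coding genes of the region held a SNP, so their 0 SNPs say nothing particular about them. RPS4 (AT5G45250), a disease resistance gene against bacterial pathogens on the shelf, held 1 SNP. It was the only gene matched by name, and resistance genes without such a name were not searched for.

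Set beside the distal end of chromosome 4, from position 10000001 to 18554074, that of chromosome 5 was somewhat sparser and had more long gaps. Its 39.2 SNPs per Mb compared with 49.8 per Mb (45.2 to 54.8) on chromosome 4, where 426 SNPs were listed, a ratio of 0.787 (95% interval 0.681 to 0.909). The first Mb was the densest on both, with 86 SNPs on chromosome 5 and 109 on chromosome 4. Without it on either, 33.3 per Mb on chromosome 5 compared with 42.0 per Mb on chromosome 4, a ratio of 0.794 (0.671 to 0.937). Both stretches were chosen for few SNPs, so their densities were not tested.

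The approach to the sparse stretch started from different SNP levels on these chromosomes, while the difference in edge width depended on the settings. On chromosome 5 the windows from 17 to 17.5 Mb averaged 958 SNPs per Mb (874 to 1048), those from 17.5 to 18 Mb 420 per Mb (365 to 481), and the shelf then held 6 to 14 SNPs in every window. Chromosome 4 stepped down from a lower level, with 444 per Mb (388 to 506) from 9 to 9.5 Mb and 188 per Mb (152 to 230) from 9.5 to 10 Mb. Its first Mb beyond the limit was ragged, with windows of 3 to 24 SNPs and a variance over mean of 3.96. By the edge rule the width was 300 kb on chromosome 5 and 1200 kb on chromosome 4, from 9.7 to 10.9 Mb. With 50 kb windows these widths were 400 kb on chromosome 5 and 450 kb on chromosome 4, with 200 kb windows 400 and 1200 kb, and after thinning 1300 kb on both, so the difference was not stable to these settings.

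The sparse ends were similar in median spacing and differed in the number of long gaps. Median distances between neighbours were 12.1 kb on chromosome 5 and 10.7 kb on chromosome 4. Distances of 10 bp or less made up 6.59% (4.22 to 9.72) and 5.41% (3.46 to 8.01), 23 pairs in each. SNPs alone made up 31.1% and 30.5%, and the largest clump held 8 SNPs on chromosome 5 and 20 on chromosome 4. Gaps of 100 kb or more numbered 18 on chromosome 5 and 10 on chromosome 4, covering 28.5% and 16.1% of the length. A lower density by itself gives more of them. Even random placement would give 6.92 on chromosome 5 and 2.92 on chromosome 4, so both lay above it, by 2.60 and 3.42 times. As shares of all distances they made up 5.16% (3.09 to 8.03) and 2.35% (1.13 to 4.28), and these intervals overlap. The longest were 282 kb on chromosome 5 and 221 kb on chromosome 4, from 12598832 to 12820080. The 2 sparsest full Mb of chromosome 5 held 15 (8.40 to 24.7) and 18 SNPs (10.7 to 28.4), those of chromosome 4 held 28 (18.6 to 40.5) and 29 (19.4 to 41.6), and all these counting intervals overlap. A listed SNP fell in 5.45% of protein-coding genes on chromosome 5 and 7.09% (6.10 to 8.19) on chromosome 4, with at most 3 SNPs per gene in either.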

How the data were processed

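The authors deposited 1 table of chromosome numbers and SNP positions, per the file headers, in base coordinates with no other value, so its unit is position and no count or depth is given. The series' design text names SNPtrack as the tool that called them, and the submitters' processing notes give TAIR10 as the build. Aligner, thresholds, read depth and what counted as homozygous: not given in the sources used here. In the position columns 5 cells holding only blanks were left out. Members, segments and lists were chosen with earlier results of these data known. Windows, clumps, gaps and intervals were computed in Python 3.11.15 with scipy 1.17.1. All but the intervals were tested on simulated lists with a known edge, clumps and gap. The simulated edge was abrupt, and errors in its placement as large as the reported width were allowed. That check therefore cannot establish the width of the edge. Genes came from RefSeq for TAIR10.1, whose nuclear sequences are those of TAIR10, and no gene coordinates are printed. The share of distal SNPs in protein-coding genes was 46% unshifted and 56.6 to 68.6% after 10 shifts of up to 5000 bp. Named genes were the 10 with the most SNPs (a tie of 22 genes at 2 SNPs was taken in order of position), those at the 5 largest clumps (a tie included) and 3 longest gaps, and list members. The disease resistance list was taken by name, and only RPS4 matched. Reference bases, codon positions and repeated sequence were not analysed here.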

Additional observations from a re-analysis of the deposited data

How the results depend on the processing

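No paired analysis was possible because there is 1 list, tied to no pool. Densities, shares and their ratios were held to the 95% interval of the value reported, which 6 of 15 alternatives kept and 9 left. Other values were held to within 1.5 times, which 8 of 13 kept and 5 left. None of the 28 turned a direction, but densities, widths, counts and gap lengths have no direction to turn. The ratio to the first 18 Mb could hardly turn either, because the region was chosen as sparse. The density of the distal end was 33.3 per Mb from 19 Mb, 31.6 from 20 Mb and 32.1 after thinning to 1 SNP per 1 kb, and its ratio to the first 18 Mb was 0.0534, 0.0507 and 0.116. Thinning widened the edge to 1300 kb. It kept 82% of the SNPs of the distal end and 44.6% of those of the first 18 Mb. The median window of the first 18 Mb, on which the edge rule rests, fell from 57.5 to 28 SNPs. How far this set the width was not tested. Joining neighbours within 50 kb left 57 groups. Empty windows made up 27.0% at 50 kb and 0% at 250 kb. The variance over mean, which grows with the mean count, was 4.82 at 250 kb (the cause was not tested). It was 1.58 for loci from 20 Mb on, an alternative chosen after seeing the data. The longest gap grew to 929 kb without isolated SNPs. The ratio to chromosome 4 was 0.934 (95% interval 0.800 to 1.09) when only that chromosome lost its dense first Mb, and this interval includes 1. The ratio was 0.794 when both lost it, an alternative also chosen after seeing the data. The share of SNPs in genes stayed inside its interval in both alternatives. An end at the reference chromosome's last base, and all alternatives for reference base, codon position and repeated sequence, were not run. Unknown depth limits every gap: a missing SNP may be an uncalled one.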
